A study of Homo sapiens with 3 samples.

Results

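A group of 8 named long noncoding RNAs was followed in LNCaP cells: MALAT1, NEAT1, PCGEM1, PCA3, PCAT1, PCAT14, SCHLAP1 and H19. They were taken from the deposited count table as the rows whose Ensembl gene identifier carries one of these names in GENCODE release 29, and all 8 were found among 58884 gene rows. The study asked how medium conditioned by fat from around the prostate acts on prostate cancer cells. LNCaP is an established human prostate cancer line, derived from a lymph node metastasis, that responds to androgens. Cells of every group had 24 h of pre-culture and then 72 h in a medium that was 50% conditioned medium (CM) with 2% fetal bovine serum. The groups were control-CM, PVAT-CM, whose library is labelled normal, and PPAT-CM, whose library is labelled tumor. PPAT stands for periprostatic adipose tissue, and the labels do not expand PVAT. Each medium had 1 library, made with a kit for polyadenylated mRNA, so no difference below has a replicate check, no p-value was computed, and what is compared are libraries.

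Long noncoding RNAs are transcripts that are not translated into a known protein. MALAT1 and NEAT1 are abundant nuclear RNAs made from neighbouring genes: MALAT1 collects in nuclear speckles, where splicing factors are stored, and NEAT1 is the scaffold around which paraspeckles form. PCGEM1, PCA3, PCAT1, PCAT14 and SCHLAP1 are known for expression in prostate tissue or prostate cancer, and PCA3 is measured in urine as a prostate cancer marker. H19 is an imprinted RNA of fetal tissue, expressed from the maternal allele next to IGF2, and is the precursor of the microRNA miR-675.

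The ends of MALAT1 and NEAT1 are shown because they bear on how these RNAs enter a library of polyadenylated RNA. Both RNAs are cut by RNase P ahead of a small tRNA-like RNA, and their mature ends carry no added poly(A) tail but a stretch of A encoded in the genome, which folds into a triple helix with stretches of U. The last 80 bases before the small RNA are given from the GENCODE 29 transcripts (GRCh38, plus strand, MALAT1 at chr11:65506037-65506116 and NEAT1 at chr11:65445461-65445540), with capitals for runs of 4 or more A. The small RNAs follow at chr11:65506117-65506173 and chr11:65445541-65445598.
MALAT1 end: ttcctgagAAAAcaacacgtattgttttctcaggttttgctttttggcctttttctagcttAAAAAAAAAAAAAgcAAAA
NEAT1 end: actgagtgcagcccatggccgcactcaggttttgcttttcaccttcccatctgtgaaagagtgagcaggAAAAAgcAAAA
MALAT1 tRNA-like RNA: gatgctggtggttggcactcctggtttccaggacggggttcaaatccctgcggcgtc
NEAT1 tRNA-like RNA: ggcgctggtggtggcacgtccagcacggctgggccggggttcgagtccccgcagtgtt
The small RNAs, of 57 and 58 bases, had 40 identical bases over an alignment of 59 positions, or 67.8%. Their own rows in the count table held 0 counts in all 3 libraries.

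H19 is shown through its microRNA, since H19 had the widest spread between libraries of the 8 RNAs. The mature sequences are from RefSeq (GRCh38.p14, minus strand, chr11:1996768-1996787 for the 3p arm and chr11:1996800-1996822 for the 5p arm), with the seed, bases 2 to 8, in capitals. The arms have different seeds.
hsa-miR-675-3p: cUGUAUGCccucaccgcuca
hsa-miR-675-5p: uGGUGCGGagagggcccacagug
The MIR675 row, which lies inside an H19 exon, held 0 counts in every library, as did all 12 annotated genes that lie inside exons of MALAT1, NEAT1, PCGEM1, PCA3 or H19. Genes wholly inside exons of a gene with a mean count of at least 1000 almost always had no count in these data, as given with PCA3 below. That check does not cover PCGEM1, PCA3 and H19, whose mean counts were 50.3, 24.7 and 36.0. The zeros of the 12 genes are not read as absence of these small genes, and whether the hosts lost reads there is not known.

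Promoter sequences were found in RefSeq (GRCh38.p14) for 4 of the members, MALAT1, PCGEM1, PCA3 and H19. Those of H19, PCA3 and PCGEM1 are printed because these RNAs had the largest ratios between libraries among the 8. Each runs from 250 bases before the start to 50 bases after it, at chr11:2001217-2001516 on the minus strand for H19, chr9:76764186-76764485 on the plus strand for PCA3 and chr2:192749595-192749894 on the plus strand for PCGEM1. The RefSeq start of PCA3 lies inside the GENCODE 29 gene and is not its 5′ end. Capitals mark the motif match in PCGEM1.
H19 promoter: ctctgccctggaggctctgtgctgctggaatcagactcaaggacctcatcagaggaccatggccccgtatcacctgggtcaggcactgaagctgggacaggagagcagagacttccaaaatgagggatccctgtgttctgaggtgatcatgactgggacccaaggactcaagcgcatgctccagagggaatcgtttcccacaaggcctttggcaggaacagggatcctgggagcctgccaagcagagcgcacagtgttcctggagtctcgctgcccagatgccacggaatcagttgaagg
PCA3 promoter: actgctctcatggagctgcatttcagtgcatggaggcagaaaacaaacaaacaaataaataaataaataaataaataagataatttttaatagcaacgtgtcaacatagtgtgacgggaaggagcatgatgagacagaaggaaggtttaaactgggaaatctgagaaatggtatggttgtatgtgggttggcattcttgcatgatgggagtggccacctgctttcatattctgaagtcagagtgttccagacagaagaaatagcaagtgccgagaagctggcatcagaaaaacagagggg
PCGEM1 promoter: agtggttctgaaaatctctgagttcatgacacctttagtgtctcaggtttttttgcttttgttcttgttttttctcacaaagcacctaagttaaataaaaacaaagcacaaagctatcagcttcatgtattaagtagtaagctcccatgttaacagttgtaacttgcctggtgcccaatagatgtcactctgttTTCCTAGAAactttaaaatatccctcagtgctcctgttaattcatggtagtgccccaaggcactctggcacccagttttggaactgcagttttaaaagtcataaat
Both strands were searched for 2 motifs. The STAT motif TTCNNNGAA, found in 7.66% of 35116 promoters of the same length, had 1 match in PCGEM1 at position 195, counted from 1 at the 5′ end of the window, and none in H19 or PCA3. The AP-1 motif TGANTCA, found in 7.71% of promoters, had no match in these 3 windows. A match describes letters in the window and is not evidence of binding.

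Library totals lay between 14174241 and 16965584 counts. Counts were scaled by TMM factors and are given as CPM of the scaled library (scaled CPM). Values given for all 3 libraries run in the order control-CM, PVAT-CM, PPAT-CM. The limit used for a count of 0 (3 counts) was 0.198, 0.210 and 0.163 scaled CPM, somewhat below the upper end of the 95% counting interval of such a count. Mitochondrially encoded genes took 30.8%, 21.1% and 15.5% of counts, and scaling by totals alone moved the median log2 ratio of all genes from 0.03 to 0.27 in PPAT-CM against control-CM, from 0.02 to 0.15 in PVAT-CM against control-CM and from 0.02 to 0.13 in PPAT-CM against PVAT-CM. Where this turned a direction or ended a 1.5-fold call of a named gene, that stands beside the value. All 10 prostate luminal markers were present, with counts from 236 to 17615. Intervals are 95% counting intervals. They cover counting error only and say nothing of how far separate cultures would differ. Fewer cells of a kind and less RNA per cell cannot be told apart in such bulk samples.

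Of the 8 RNAs, 5 had a mean count of at least 50 over the 3 libraries and are called measured below: NEAT1, MALAT1, SCHLAP1, PCAT1 and PCGEM1. PCGEM1 lay just inside that limit with a mean of 50.3. H19 lay just outside with 36.0, PCA3 had 24.7 and PCAT14 had no count. None of the 5 measured RNAs differed 2-fold between any pair of libraries (0 of 5 in each comparison). Among all 12256 measured genes 6.67% passed 2-fold between PPAT-CM and control-CM, 0.906% between PVAT-CM and control-CM and 3.92% between PPAT-CM and PVAT-CM. Between PPAT-CM and control-CM 3.93% were higher and 2.74% lower, that is 482 and 336 genes, and with total counts 905 and 178. With a mean count of at least 10, 7 of the 8 entered, H19 through its PPAT-CM counts alone. PCA3 and H19 were then more than 2-fold higher in PPAT-CM than in control-CM, where 5.85% of 16009 genes were, and than in PVAT-CM, where 4.87% were. H19 had to differ to enter, so nothing is read from these counts. The log2 ratio of H19 in PVAT-CM against control-CM also lay past 2-fold lower under that limit, with 2.97% of genes. On 0 against 5 counts that rests on the pseudocount, and the counting intervals of these libraries overlap.

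**Figure D1:**
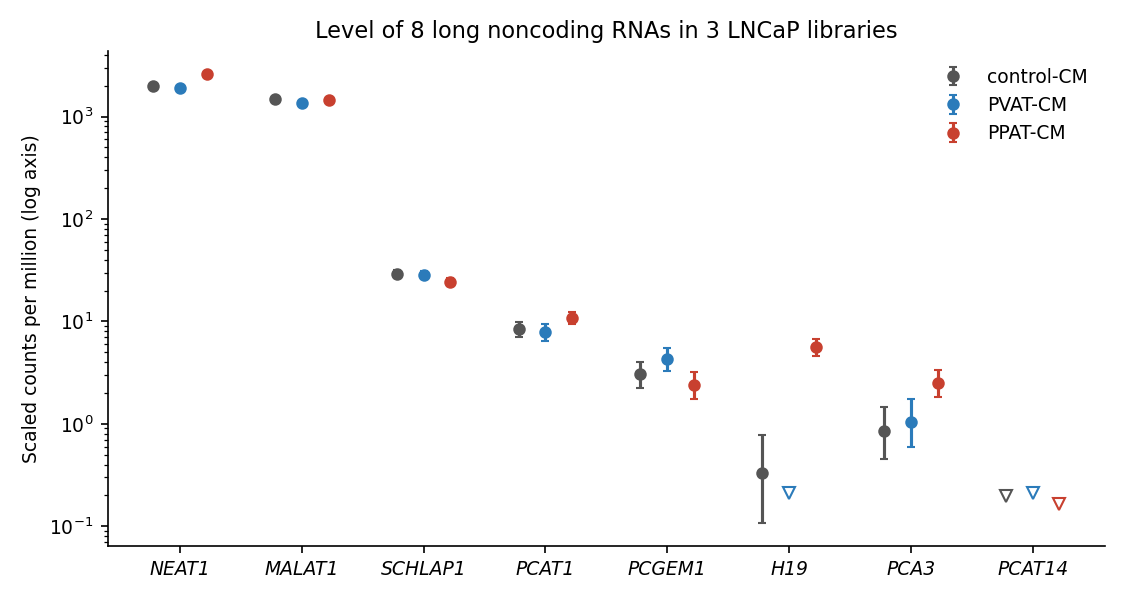
Scaled CPM (log axis) of the 8 long noncoding RNAs in the control-CM, PVAT-CM and PPAT-CM libraries, 1 point per library with its 95% counting interval. Open triangles stand for libraries with 0 counts and are drawn at the limit that a count of 0 allows. NEAT1 and MALAT1 lie above 1000, H19 differs most between libraries, and PCAT14 has no count.

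Per length of exon, the order of the levels was MALAT1, NEAT1, SCHLAP1, and then, far below, PCGEM1, PCAT1 and PCA3. In control-CM the levels were 169, 86.3, 20.2, 1.77, 0.497 and 0.0605 scaled CPM per kb of merged GENCODE 29 exons, in that order, with counting intervals that did not overlap between neighbours. H19, at 0.114 (0.0369 to 0.266), could not be ordered against PCA3, at 0.0605 (0.0322 to 0.103), beyond counting error. In PPAT-CM H19 stood at 1.93 (1.58 to 2.35) and overlapped PCGEM1, at 1.40 (1.02 to 1.88). Among long noncoding genes MALAT1 ranked 5 and NEAT1 ranked 10 by this level averaged over the libraries, and SCHLAP1 ranked 72. The merged exons take in those of every annotated transcript, 1 for SCHLAP1, 17 for MALAT1, 17 for PCA3 and 32 for PCAT1, used or not in these cells. NEAT1 has 8, of 512 to 22743 bases, and its level divides by 22767 bases. Its counts were above those of MALAT1 in every library, so the order of MALAT1 and NEAT1 rests on the length taken.

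NEAT1 (ENSG00000245532, chr11:65422774-65445540, plus strand, GRCh38) was higher in PPAT-CM than in either other library. Its counts were 29817, 27087 and 48247, or 1966, 1900.0 and 2624 scaled CPM. PPAT-CM stood above the other libraries, which lay close together. PPAT-CM was 1.33-fold above control-CM (1.32 to 1.35) and 1.38-fold above PVAT-CM (1.36 to 1.40). The 1.33-fold was larger than the ratio of 80.1% of all measured genes and of 90.4% of 344 measured lincRNA genes. Over 5 other scalings it lay between 1.27 and 1.58, with total counts giving the highest. With TMM factors computed without the mitochondrial genes its log2 ratio was 0.40, against 0.42 with them. PVAT-CM was 1.03-fold below control-CM (1.02 to 1.05), a difference whose direction turned with total counts. NEAT1 has a short, polyadenylated form and the long form that builds paraspeckles, and counts per gene do not separate them.

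MALAT1 (ENSG00000251562, chr11:65497688-65506516, plus strand), which begins 74.9 kb beyond the start of NEAT1, was nearly level. Its counts were 22679, 19179 and 26482, or 1495, 1345 and 1440.2 scaled CPM. The highest value was in control-CM and the lowest in PVAT-CM. PPAT-CM was 1.04-fold below control-CM (1.02 to 1.06), and this direction turned with total counts, which gave a ratio of 1.14. PVAT-CM was 1.11-fold below control-CM (1.09 to 1.13). PPAT-CM was 1.07-fold above PVAT-CM (1.05 to 1.09).

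The balance of NEAT1 and MALAT1 within a library needs no scaling between libraries. For each MALAT1 count there were 1.31 of NEAT1 in control-CM (1.29 to 1.34), 1.41 with PVAT-CM (1.39 to 1.44) and 1.82 with PPAT-CM (1.79 to 1.85). The balance was thus 1.39-fold higher in PPAT-CM than in control-CM and 1.29-fold higher than in PVAT-CM, and 1.07-fold higher in PVAT-CM than in control-CM. NEAT1 and MALAT1 together took 0.317% (exact binomial interval 0.315 to 0.320), 0.326% (0.323 to 0.329) and 0.440% (0.437 to 0.444) of all counts. Of the counts outside mitochondrially encoded genes they took 0.459%, 0.414% and 0.521%. On that base PVAT-CM was lowest and not control-CM. Of all long noncoding counts, they made up 16.0%, 15.6% and 20.4%.

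**Figure D2:**
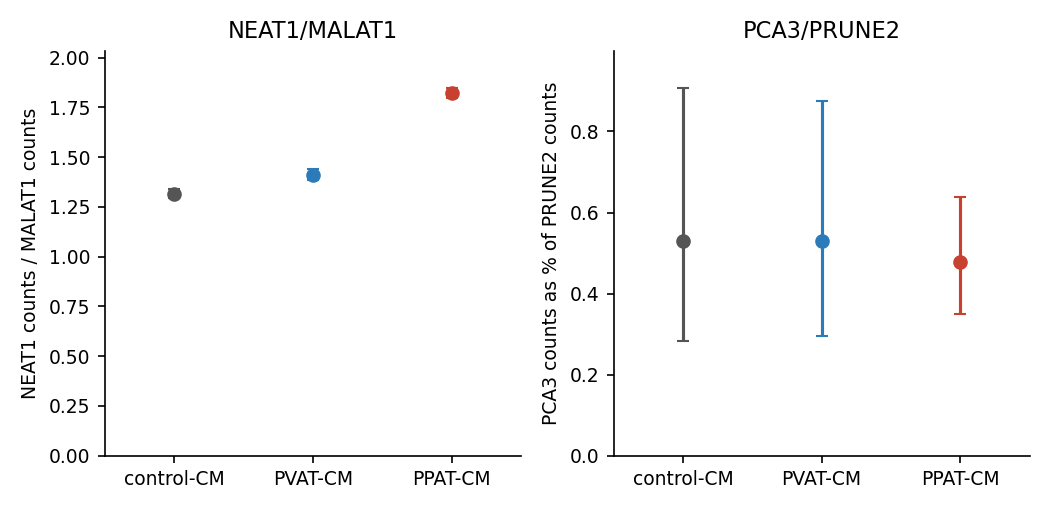
Ratios of counts within each library with 95% counting intervals: NEAT1 counts per MALAT1 count (left) and PCA3 counts as a percentage of PRUNE2 counts (right), 1 point per library. The NEAT1 to MALAT1 ratio runs from 1.31 to 1.82, while the PCA3 share of PRUNE2 stays between 0.478% and 0.530% with overlapping intervals.

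Genes around the NEAT1 and MALAT1 locus did not share 1 ratio. FRMD8, the protein-coding gene that ends 9.25 kb before NEAT1, with 360, 368 and 693 counts, was 1.59-fold higher in PPAT-CM than in control-CM (1.40 to 1.81). The pseudogene FAUP4, between NEAT1 and MALAT1, with 235, 180 and 384 counts, was 1.35-fold higher (1.14 to 1.59). As a pseudogene copy it is uncertain. Beyond MALAT1, LTBP3, which binds latent TGF-beta, was 1.34-fold lower (1.28 to 1.41). Upstream, SLC25A45 was 1.27-fold lower (1.14 to 1.41) and, farther out, DPF2 was 1.13-fold higher (1.01 to 1.26). The higher ratios therefore lay at FRMD8, NEAT1 and FAUP4, with lower ones at SLC25A45, MALAT1 and LTBP3. With total counts MALAT1 changed to a ratio above 1, while LTBP3 and SLC25A45 did not.

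**Figure D3:**
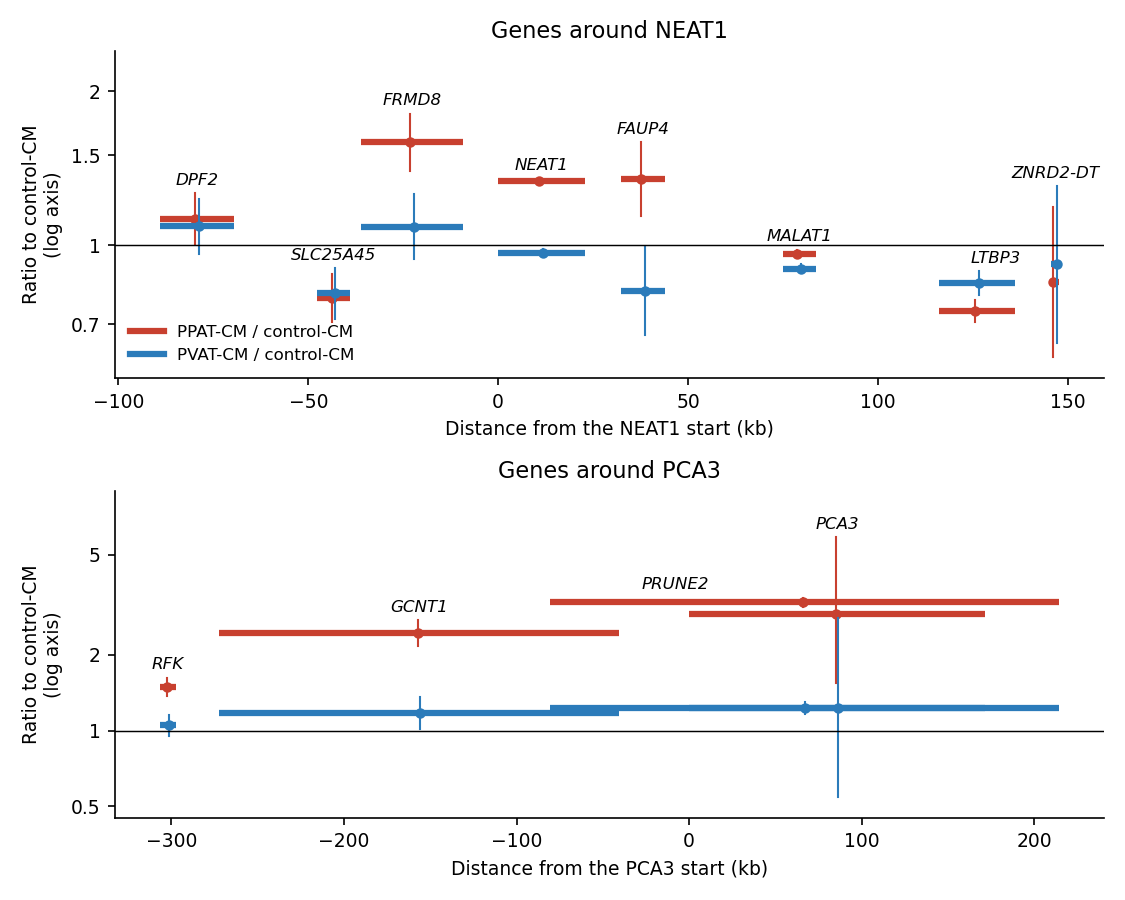
Ratio to control-CM (log axis) of measured genes around NEAT1 and of PCA3 with the measured genes around it, placed by distance in kb from the start of NEAT1 or PCA3. Thick bars span the gene, and points with thin lines give the ratio and its 95% counting interval for PPAT-CM (red) and PVAT-CM (blue). FRMD8, NEAT1 and FAUP4 lie above 1 in PPAT-CM, and PCA3 lies beside PRUNE2 in both media.

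Transcripts of proteins from the bodies these RNAs belong to were counted next. Between PPAT-CM and control-CM 20.7% of all measured genes differed 1.5-fold, 12.0% higher and 8.71% lower. With total counts 24.1% were higher and 4.39% lower. Of 33 measured genes for nuclear speckle proteins none differed 1.5-fold, and with total counts 1 did. Their median log2 ratio was -0.25, with 4 of 33 above a ratio of 1, against a median of 0.03 for all genes. With total counts these medians were -0.0071 and 0.27. SON, a scaffold protein of speckles, with 4353, 3523 and 3815 counts, was 1.38-fold lower (1.32 to 1.45). SRSF2, a splicing factor, was 1.20-fold lower (1.13 to 1.27). LUC7L2 was 1.48-fold lower (1.37 to 1.60), the largest ratio of the list, and passed 1.5-fold with upper quartile factors.

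Of 29 measured genes for paraspeckle proteins 2 were at least 1.5-fold higher in PPAT-CM than in control-CM and none lower, with a median log2 ratio of 0.08. The shares to set beside this list and the next are the 12.0% higher and 8.71% lower of all measured genes. With total counts, where NONO and HNRNPUL1 joined, 4 were higher. RBM7, also a subunit of the complex that brings nuclear RNA to the exosome, with 179, 165 and 518 counts, was 2.39-fold higher (2.01 to 2.85). RBMX, an RNA-binding protein, was 1.77-fold higher (1.66 to 1.89). The 3 core proteins of the paraspeckle differed from each other: NONO was 1.34-fold higher (1.29 to 1.39), while SFPQ had a ratio of 0.993 (0.952 to 1.04) and PSPC1 of 0.944 (0.856 to 1.04), both with intervals that include 1 and both above 1 with total counts. Of 31 measured genes for end processing of these RNAs and for nuclear RNA decay, 2 were at least 1.5-fold higher, RBM7 and RPP25L, and 1 lower, the exosome subunit EXOSC9 at 1.61-fold (1.37 to 1.89). With total counts 4 were higher and the call of EXOSC9 ended, leaving none lower. The median of that list was 0.06.

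PCGEM1 (ENSG00000227418, chr2:192749845-192776899, plus strand) was highest in PVAT-CM. The counts were 46, 61 and 44, or 3.03, 4.28 and 2.39 scaled CPM. PPAT-CM was 1.79-fold below PVAT-CM (1.19 to 2.70), past 1.5-fold, as 6.07% of genes were in this direction. Only 2.53% of measured genes and 9.88% of lincRNA genes had a lower ratio. Against control-CM the intervals included 1, at 1.41-fold higher in PVAT-CM (0.946 to 2.12) and 1.27-fold lower in PPAT-CM (0.820 to 1.96). The nearest protein-coding gene, TMEFF2, a membrane protein of prostate and brain 554 kb away, had 2448, 2778 and 2327 counts and its highest level in the same library. In PPAT-CM it was 1.54-fold below PVAT-CM (1.46 to 1.63). With total counts TMEFF2 stayed lower in PPAT-CM, but this 1.5-fold call ended.

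SCHLAP1 (ENSG00000281131, chr2:180692104-180916939, plus strand), known for binding the SWI/SNF chromatin remodelling complex and as a marker of aggressive prostate cancer, had the highest counts of the 5 prostate RNAs among the members. It had 440, 404 and 447 counts, or 29.01, 28.3 and 24.3 scaled CPM, and was lowest in PPAT-CM. PPAT-CM was 1.19-fold below control-CM (1.04 to 1.36) and 1.17-fold below PVAT-CM (1.02 to 1.34), and with total counts the ratio to control-CM was 0.990. PVAT-CM and control-CM could not be told apart at this depth (1.02-fold lower, 0.892 to 1.17, turned with total counts). A gene on the opposite strand, ENSG00000225258, shares 212 exon bases with it, 14.8% of the SCHLAP1 exons, and had 42, 69 and 68 counts. That gene was 1.75-fold higher in PVAT-CM than in control-CM (1.17 to 2.63). Since the strand setting of the counting is unknown, reads in the shared bases cannot be assigned to either gene, and the SCHLAP1 level is uncertain to that extent. UBE2E3, a ubiquitin-conjugating enzyme gene 50.3 kb away, was 1.13-fold lower in PPAT-CM than in control-CM (1.06 to 1.20), a direction that turned with total counts.

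Subunits of SWI/SNF and of the Polycomb complex PRC2 were all measured, 28 of 28. In PPAT-CM against control-CM 2 were at least 1.5-fold higher, BRD7 at 1.70-fold (1.51 to 1.92) and SMARCD3 at 1.61-fold (1.48 to 1.76). JARID2, which joins PRC2, was 1.57-fold lower (1.37 to 1.80). For all measured genes the shares were 12.0% higher and 8.71% lower. With total counts 6 were higher, SMARCA2 among them, and none lower, so the call of JARID2 ended. That scaling put 24.1% of all genes higher and 4.39% lower. The median log2 ratio was -0.02, or 0.23 with total counts, beside 0.03 and 0.27 for all measured genes.

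PCAT1 (ENSG00000253438, annotated as antisense) was higher in PPAT-CM. It had 127, 112 and 199 counts, or 8.37, 7.86 and 10.8 scaled CPM. PPAT-CM was 1.29-fold above control-CM (1.03 to 1.63) and 1.38-fold above PVAT-CM (1.09 to 1.75). PVAT-CM was 1.07-fold below control-CM, with an interval that includes 1 (0.820 to 1.39) and a direction that turned with total counts.

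PCA3 (ENSG00000225937, chr9:76691980-76863307, plus strand) lies antisense within PRUNE2, and its counts were few. They were 13, 15 and 46, or 0.857, 1.05 and 2.50 scaled CPM. PPAT-CM was 2.92-fold above control-CM (1.55 to 5.89) and 2.38-fold above PVAT-CM (1.30 to 4.58), while PVAT-CM and control-CM could not be told apart at this depth (1.23-fold, 0.545 to 2.80). PRUNE2, the gene on the other strand, with 2452, 2832 and 9614 counts, was 3.23-fold higher in PPAT-CM than in control-CM (3.09 to 3.38). PCA3 counts were 0.530% (0.282 to 0.908), 0.530% (0.296 to 0.875) and 0.478% (0.350 to 0.639) of PRUNE2 counts. That share was the same in all 3 libraries within counting error.

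The strand setting of the counting is not given in the sources used here, and 1060 bases of PCA3 exon, 7.48% of the total, overlap PRUNE2 exons. Without strand, reads of the 2 genes in such bases cannot be told apart. The other PCA3 exon bases lie inside PRUNE2 but outside its exons, where unspliced PRUNE2 reads would count for PCA3 without strand. How many PCA3 counts are such reads was not tested, so a PCA3 level of its own is uncertain. Among genes that lie wholly inside the exons of a gene with a mean count of at least 1000, 108 of 109 on the opposite strand and 211 of 212 on the same strand had no count. These rows thus do not tell a stranded from an unstranded setting. Beyond PRUNE2, GCNT1, a glycosyltransferase gene 40.8 kb away, with 374, 413 and 1107 counts, was 2.44-fold higher in PPAT-CM than in control-CM (2.17 to 2.75), and RFK, riboflavin kinase, was 1.49-fold higher (1.37 to 1.62).

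PCAT14 (ENSG00000280623, chr22:23536881-23547797, plus strand) had 0 counts in every library, which allows up to 0.210 scaled CPM. Its protein-coding neighbour BCR had 766, 787 and 1004 counts, and IGLL1 had 0, 0 and 1.

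H19 (ENSG00000130600, chr11:1995176-2001470, minus strand) was the RNA that differed most. Its counts were 5, 0 and 103, or 0.330, 0 and 5.60 scaled CPM. Nearly all counts were in PPAT-CM. That library was 17.0-fold above control-CM (7.05 to 53.4). With 103 taken as exact and 3 counts as the limit for PVAT-CM, it was at least 26.6-fold higher than PVAT-CM. PVAT-CM and control-CM, at 0 and 5 counts, could not be told apart at this depth. Their intervals, 0 to 0.259 and 0.107 to 0.769 scaled CPM, overlap. On the log2 scale with a pseudocount of 0.5, the ratio of PPAT-CM to control-CM was 3.96, lay between 3.89 and 4.19 under other scalings and was 3.20 with a pseudocount of 5.

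IGF2, the growth factor gene paired with H19 in imprinting, had 0 counts in all libraries. MRPL23, the nearest protein-coding gene on the other side, with 1424, 1205 and 920 counts, was 1.88-fold lower in PPAT-CM than in control-CM (1.73 to 2.04). Of 13 measured genes of a list of imprinted genes and H19 or IGF2 partners, none was 1.5-fold higher and 4 were lower: SNRPN at 2.02-fold (1.86 to 2.19), the cell cycle inhibitor CDKN1C at 2.02-fold (1.36 to 3.04), GNAS at 1.65-fold (1.63 to 1.68) and ZDBF2 at 1.55-fold (1.26 to 1.90). For all measured genes the shares were 12.0% higher and 8.71% lower. With total counts the calls of GNAS and ZDBF2 ended, leaving 2 lower, and 1 was higher, where 24.1% of all genes were higher and 4.39% lower. The list median was -0.13 and was 0.11 with total counts, beside 0.03 and 0.27 for all measured genes. Markers of cells that fat tissue holds were counted beside H19. The 6 adipocyte markers summed to 13, 27 and 91 counts, of which PLIN1, a lipid droplet protein, made 13, 27 and 89, and ADIPOQ, FABP4 and LEP had 0 in every library. The 6 fibroblast markers summed to 783, 367 and 531, of which COL1A1 made 718, 323 and 478, with COL1A2, DCN and PDGFRA at 0, the 7 leukocyte markers to 11, 17 and 10 with PTPRC, CD3E, CD3D and MS4A1 at 0, and the 5 endothelial markers to 27, 16 and 35 with CDH5, CLDN5 and KDR at 0. What part PLIN1 or COL1A1 has in the H19 and PCA3 values was not tested.

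**Figure D4:**
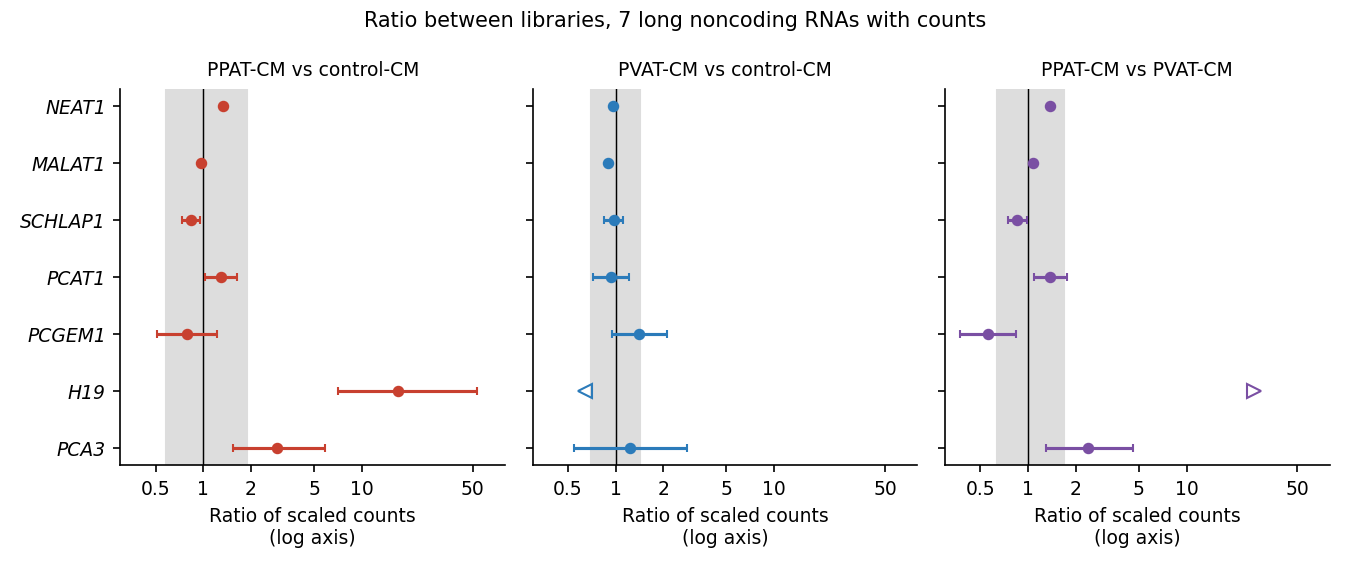
Ratio of scaled counts (log axis) between each pair of libraries for the 7 RNAs with counts, with 95% counting intervals. Open triangles give the bound for H19 where PVAT-CM has 0 counts, and grey bands span the 5th to 95th percentile of all measured genes, 0.583 to 1.88 in PPAT-CM against control-CM. H19 and PCA3, both under the count limit of 50, lie above that band in PPAT-CM against control-CM, and the other 5 RNAs lie within it.

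Other long noncoding RNAs were mostly lower in PPAT-CM than in control-CM. Over 344 measured lincRNA genes the median log2 ratio was -0.29, against 0.03 for all measured genes. With total counts these medians were -0.05 and 0.27. At least 2-fold higher were 5 of the lincRNA genes (1.45%) and lower 33 (9.59%). At 1.5-fold 16 of the 344 were higher and 95 lower, beside 12.0% and 8.71% of all measured genes. Of a list of 11 measured other prostate RNAs none was 1.5-fold higher and 4 were lower, with a median of -0.37, or -0.13 with total counts. Those lower were TMPO-AS1 at 2.46-fold (1.60 to 3.86), CTBP1-AS at 2.03-fold (1.78 to 2.31), PCAT6 at 1.89-fold (1.64 to 2.18) and DANCR, whose log2 ratio was -0.58, at the threshold itself. With total counts DANCR dropped out and 3 were lower. TMPO-AS1, with 67, 109 and 33 counts, was highest in PVAT-CM, as was PCGEM1. DRAIC, a tumour-suppressive RNA of prostate, had 244, 211 and 275 counts and a ratio of 0.930 (0.780 to 1.11) that rose above 1 with total counts, and ARLNC1 had 0, 0 and 1.

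Of 9 measured RNAs of a list of broadly known long noncoding RNAs, most of them nuclear, 2 were at least 1.5-fold higher and 3 lower. For all measured genes these shares were 12.0% and 8.71%, and of 344 lincRNA genes 16 were higher and 95 lower. The list median was -0.27, or -0.03 with total counts, beside 0.03 and 0.27 for all measured genes. FIRRE, named after its values were seen, had a log2 ratio of 0.60 and passed 1.5-fold with TMM but not with upper quartile factors. NORAD, a mainly cytoplasmic RNA that binds Pumilio proteins, with 2184, 2634 and 4785 counts, was 1.81-fold higher in PPAT-CM (1.72 to 1.90). HOTAIRM1, with 118, 62 and 57 counts, was 2.51-fold lower (1.81 to 3.51). KCNQ1OT1, an imprinted antisense RNA on the same chromosome arm as H19, was 1.79-fold lower (1.42 to 2.27).

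In PVAT-CM against control-CM the median log2 ratios were -0.14 for speckle protein genes, 0.07 for paraspeckle protein genes, 0.01 for RNA end processing and decay, 0.05 for SWI/SNF and PRC2 subunits and -0.11 for the imprinted list. They were 0.01 for the other prostate RNAs, -0.07 for the broadly known RNAs and -0.03 for lincRNA genes. With total counts the last 2 and the imprinted list turned above 0, and other scalings put both medians of 0.01 below 0. The median of all measured genes was 0.02, or 0.15 with total counts. No speckle or paraspeckle gene passed 1.5-fold, where 6.64% of all measured genes did, and with total counts 1 did, RBMX. Both comparisons share the control-CM library.

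**Figure D5:**
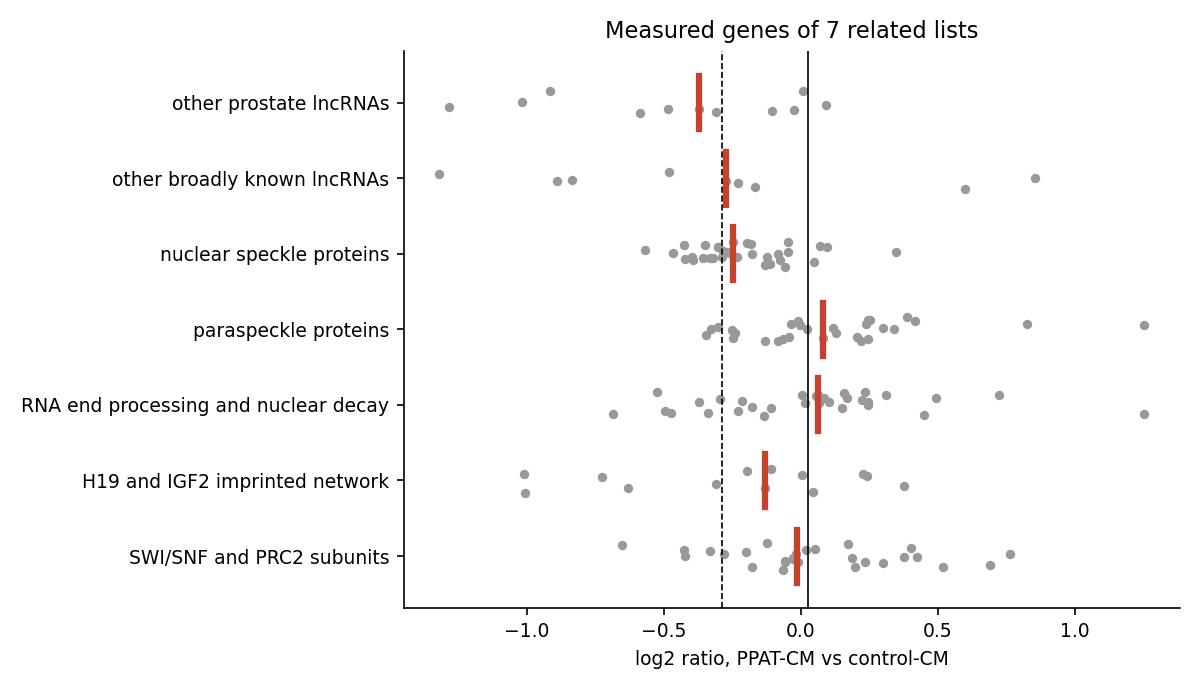
Log2 ratio of PPAT-CM to control-CM for the measured genes of 7 related lists, 1 grey point per gene, with the list median as a red bar. The solid line is the median of all measured genes (0.03) and the dashed line that of lincRNA genes (-0.29). The speckle protein median lies at -0.25 and the paraspeckle protein median at 0.08.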

How the data were processed

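RNA sequencing of 3 LNCaP libraries was used, 1 per medium. The authors deposited raw whole-number counts for each gene. FastQC, Trimmomatic, HISAT2, featureCounts and edgeR were used with GRCh38, per the submitters' processing notes, while versions, settings and strand were not given in the sources used here. Reads of overlapping genes could have been merged and reads of near-identical copies lost. Counts were scaled with TMM factors (0.917 in control-CM, 1.01 in PVAT-CM, 1.08 in PPAT-CM; edgeR 4.0.16, R 4.3.3). Genes with a mean count of at least 50 were kept, 12256 in all. Fold values are ratios of scaled counts with exact conditional binomial (Clopper-Pearson) 95% intervals, or bounds against a floor of 3 counts per library. Such bounds take the other count as exact. Reads are not independent molecules, so intervals may be too narrow. Thresholds and medians used log2 ratios with a pseudocount of 0.5. With 1 library per medium no test has residual degrees of freedom. Levels per kb used merged exons of GENCODE 29, which gave coordinates for 58611 rows. The ratio, its interval and the 2-fold rule were tested on simulated counts with known folds. Those counts held counting error only and were scaled by their totals. TMM scaling, list medians and differences between cultures were not part of that test. The named genes were all 8 members, up to 4 measured genes of each of 8 lists with the largest ratio in PPAT-CM against control-CM, genes fixed by name, the genes next to or overlapping a member, measured genes within 150 kb of NEAT1 or 500 kb of PCA3, and the 3 genes nearest in pattern to each measured member. The members and lists were chosen with earlier results of these data known. The place of PCAT1 and the genes near it, 1 of the lists and some genes the rule names are not reported here, and TALAM1 is not analysed here. Alternatives were other scalings (DESeq2 1.42.0 size factors, upper quartile factors, total counts, TMM from protein-coding genes or without mitochondrial genes), a pseudocount of 5, mean counts of at least 10 or 200, no filter, and 1.5-fold or 3-fold.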

Additional observations from a re-analysis of the deposited data

How the results depend on the processing

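The count of members past 2-fold was 0 in all 3 comparisons with a mean count of at least 50, and stayed 0 under every other scaling, the pseudocount of 5, a mean count of at least 200 and the 3-fold threshold. With a mean count of at least 10, and with no filter, it was 2 in PPAT-CM against control-CM, 2 in PPAT-CM against PVAT-CM and 1 in PVAT-CM against control-CM, because H19 and PCA3 then entered. At a mean count of at least 10, the shares of all genes in these directions were 5.85% and 4.87% higher and 2.97% lower. Shares without a filter are not given, and nothing is read from these counts. H19 enters through its PPAT-CM counts alone, and its count of 0 in PVAT-CM makes its log2 ratio to control-CM a matter of the pseudocount, -3.52 with 0.5 and -1.04 with 5. At 1.5-fold the count of members was 1 in PPAT-CM against PVAT-CM, PCGEM1, lower in PPAT-CM as 6.07% of all measured genes were. Of 114 member ratios under alternatives with counts in both libraries, 99 stayed within their counting interval, 15 moved outside it and none reversed a ratio past 2-fold. Smaller ratios did turn direction with total counts. These were MALAT1 in PPAT-CM against control-CM, and NEAT1, PCAT1 and SCHLAP1 in PVAT-CM against control-CM. Depth limits PCA3, H19 and PCGEM1, with 0 to 103 counts per library. No paired analysis was possible because each medium has 1 library, and for the same reason no library could be left out.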

Other observations

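Each measured member was set beside the measured genes with the most similar pair of log2 ratios, PPAT-CM and PVAT-CM each against control-CM, over 3 libraries. PCGEM1, with 46, 61 and 44 counts, had 24 genes within a distance of 0.1. Its ratio of PVAT-CM to control-CM had an interval of 0.946 to 2.12, far wider than that distance. How common its pattern is can therefore not be read from this number. The genes nearest to PCGEM1 were SGCB, which encodes a sarcoglycan, with 457, 596 and 437 counts (control-CM, then PVAT-CM, then PPAT-CM), then PLGRKT, a plasminogen receptor, with 1375, 1772 and 1340, and SEL1L, a part of the degradation machinery of the endoplasmic reticulum, with 1392, 1792 and 1316. MALAT1 and SCHLAP1 had 557 and 490 genes within the same distance, the nearest with a symbol being RPL32P3 and TFG. NEAT1 had 212 such genes, led by UBTD2, PAXIP1 and ATG4A, and PCAT1 had 211, led by IFRD2, ASMTL and SH3BP4. The distance describes 3 libraries and takes no account of counting error.

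Some neighbours of the members with few counts differed between libraries. FOXB2, a forkhead gene beyond the far end of PCA3, had 11, 2 and 63 counts and was 4.72-fold higher in PPAT-CM than in control-CM (2.47 to 9.94). FTH1P20, a ferritin pseudogene inside SCHLAP1 and so uncertain as a near-identical copy, had 10, 49 and 15 counts.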
